A study of Mus musculus with 4 samples.

Results

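The regions around Zfp42, the neighbouring genes Dppa2 and Dppa4, and Ptn were examined in a DNA replication profile of mouse embryonic stem cells, in wild-type cells (WT) and in cells that lack Snf2h (KO). They were chosen by name, as loci known to switch replication timing when mouse stem cells become neural. The choice uses no value of these data, but was made with earlier results of them known. For each gene, all windows with a midpoint within 750 kb of its interval in GRCm38 were taken. This gave 61 windows for Zfp42, 60 each for Dppa2 and Dppa4, and 64 for Ptn. Dppa2 and Dppa4 share 59 windows, so they were joined into 1 locus of 61 windows. In all, 186 of 109033 windows were used, and each had a value in all 4 libraries.

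The profile was made by TrAEL-seq, a method that reads the exposed 3′ ends left in genomic DNA, replication forks among their sources. All libraries came from the 129S6/SvEvTac stem cell line, grown in serum with LIF on gelatin, with 2 WT cultures (wildtype in the labels) and 2 KO cultures (SNF2KO, or SNF2H_KO in the descriptions). The labels do not say whether the KO cultures stem from 1 clone or several, and p-values set the genotypes against the spread between duplicate cultures only. In limma that spread was moderated across all windows tested. Polarity is the signed imbalance between the strands in a 100 kb window, in percentage points from -50 to 50, and windows start every 25 kb. Read counts are not in the table, and depth was not estimated from the values. The KO libraries had more windows without a value, 8064 for replicate 1 and 8249 for replicate 2, against 7641 and 7717 for WT. They also had more values at the limits of -50 or 50 points, 9 and 5 against 2 and 0. How far read number shaped the spread between libraries was not tested. The SD of polarity over autosomal windows, the overall amplitude of a library, was 14.6 and 12.8 points in WT cells and 19.5 and 14.5 points in KO cells. KO replicate 1 thus had the widest profile of the 4, and most amplitudes below are given also after each library was scaled to the mean of these SDs.

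DNA in mammals is replicated from initiation zones, from which forks travel both ways until they meet forks from the next zone. A strand profile therefore switches sign abruptly where forks diverge and more gradually where they merge, and stays level where forks pass in a constant direction. Zfp42 and the pair Dppa2 and Dppa4 are known to replicate early in stem cells and late in neural precursors, whereas Ptn is known to move from late to early. Timing itself, neural cells and gene expression were not measured here, so neither the switch nor the labelled cell type could be checked. The strand counted as positive is not stated, so the turns are called rises and falls along increasing coordinates and are not assigned to initiation or termination. A rise or fall is a stretch between turning points of a running mean over 5 windows, with a change of at least 1 SD, called on the mean of the 4 libraries. Calls in a single library use that library's own SD, and any turn, however small, ends a stretch. A stretch belongs to a locus where its midpoint lies within it, and longer stretches that only reach into a locus are described apart. Over the autosomes there were 2521 rises, with a median length of 225 kb and a median slope of 12.0 points per 100 kb. The 2522 falls were longer and shallower, with medians of 325 kb and -8.42 points per 100 kb.

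Zfp42 and the Dppa genes lay on rises, and Ptn did not. Zfp42 lay in a rise of 425 kb, and Dppa2 and Dppa4 lay together in a rise of 275 kb. The midpoint of Ptn lay in neither a rise nor a fall, and the midpoint of the nearest rise was 349.9 kb away. Of 20665 autosomal protein-coding genes, 42.9% had their midpoint in a rise, 25.0% in a fall and 32.1% in neither, so the positions of these 4 genes are common ones. The mean profiles of the Zfp42 and Dppa loci, over 61 overlapping windows centred on the genes, correlated at r = 0.887, against -0.573 for Zfp42 with Ptn and -0.244 for the Dppa locus with Ptn.

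**Figure D1:**
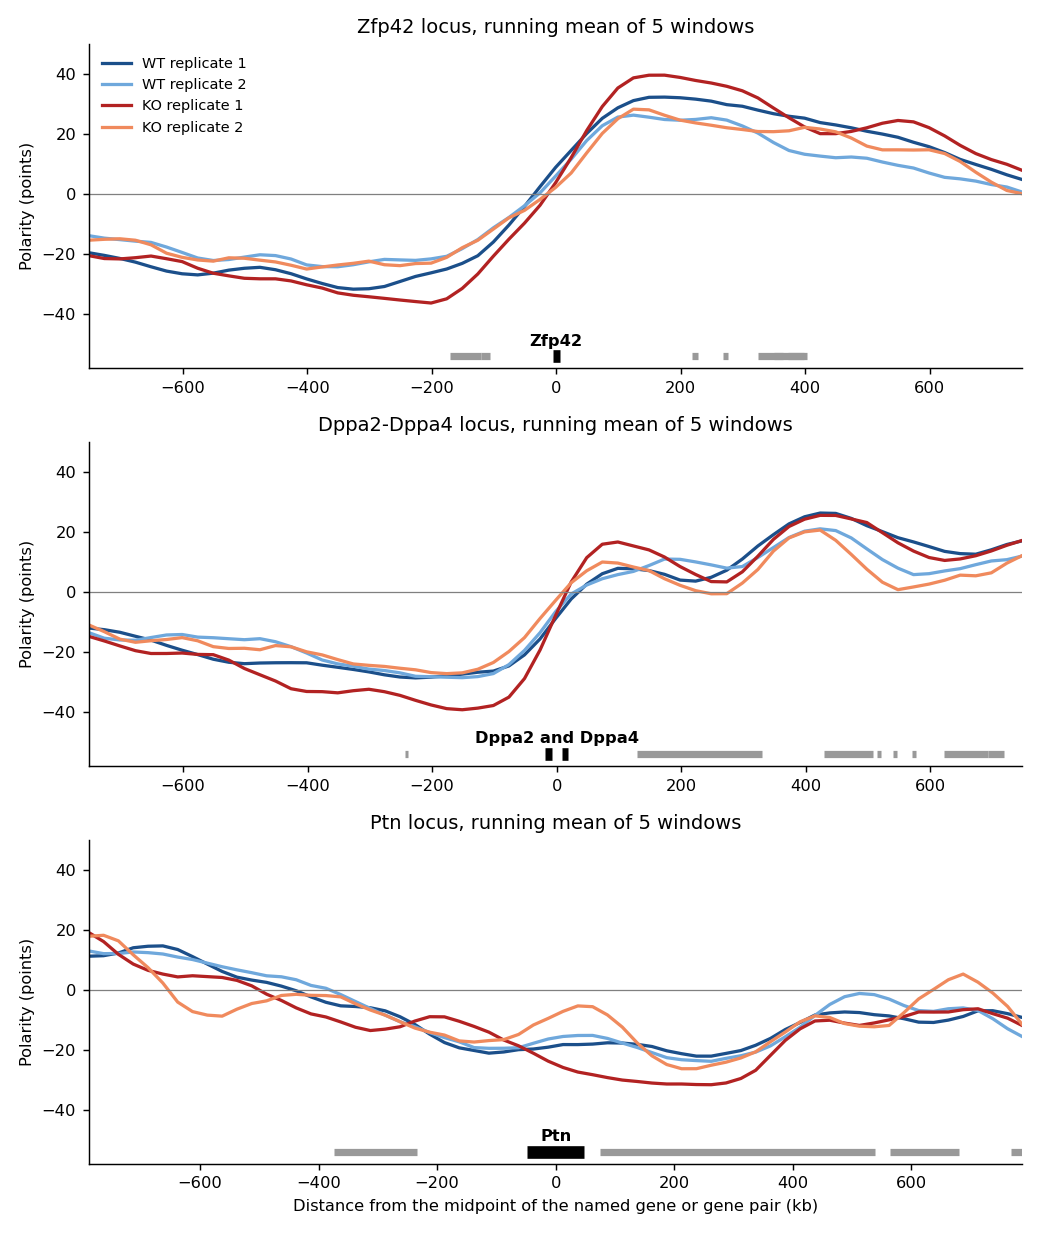
Polarity in percentage points (running mean of 5 windows of 100 kb) against distance from the gene midpoint, or from the middle of the gene pair, in kb, for each of the 4 libraries; black bars mark the named genes and grey bars other protein-coding genes. All 4 lines pass from negative to positive values near Zfp42 and near Dppa2 and Dppa4, while Ptn lies in a stretch of negative values where the KO libraries lie on either side of the WT libraries.

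Zfp42 (also called Rex1; gene ID 22702) encodes a zinc finger protein related to Yy1, and its expression is a classic marker of undifferentiated stem cells. The gene lies at 43295067 to 43307009 on chromosome 8. Its rise ran from 43025000 to 43450000 and also covered Triml1 and Triml2, genes of the tripartite motif family. In the mean profile polarity went from -27.7 to 31.4 points, a change of 59.1 points, and 99.1% of rises were smaller. The slope of 13.9 points per 100 kb was close to the median, and 67.9% of rises were less steep.

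In WT replicate 1 the Zfp42 rise went from -30.8 to 32.2 points, and in WT replicate 2 from -21.7 to 25.6 points. In KO replicate 1 it went from -34.7 to 39.6 points, and in KO replicate 2 from -23.5 to 28.1 points. KO replicate 1 was the highest and WT replicate 2 the lowest, and KO replicate 2 lay between the WT libraries. The change was 55.2 ± 11.1 points in WT cells and 63.0 ± 16.1 points in KO cells (SD, n = 2 each), and the difference of 7.77 points was below the pooled replicate SD of 13.8 points. An exact two-sided permutation test gave p = 0.667; with 6 orders of the labels this test cannot go below 0.333. The sign depended on amplitude: after scaling, the changes were 66.2 and 56.7 points in WT cells and 58.7 and 54.5 points in KO cells, a difference of -4.81 points. Without KO replicate 1 the difference on the deposited scale was -3.60 points.

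The place where the Zfp42 rise crossed 0 does not depend on amplitude, and was measured after the profiles had been seen. Positions are in kb from the middle of the gene, negative towards lower coordinates. The crossing lay at -35.4 and -28.5 kb in WT cells and at -13.7 and -14.9 kb in KO cells. Both KO crossings were therefore nearer to Zfp42, by 17.7 kb on average, against a pooled replicate SD of 3.53 kb (exact permutation p = 0.333). That shift is less than the 25 kb between windows. Among 1792 rises that each of the 4 libraries crossed exactly 1 time, the KO and WT positions did not overlap in 45%. The median absolute shift was 12.8 kb, and 62.9% had a smaller shift than the Zfp42 rise. The middle of the change, where a library stands midway between its values at the start and end of the rise, lay at -32.7 and -19.2 kb in WT cells and at -5.54 and -0.775 kb in KO cells. It thus also lay nearer the gene in both KO libraries, by 22.8 kb (pooled SD 7.12 kb; exact permutation p = 0.333).

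The window over Zfp42 itself, at 43250001 to 43350000, read 7.37 and 2.15 points in WT cells and -0.424 and -1.23 points in KO cells. WT values were thus just above 0 and KO values just below it. The means were 4.76 ± 3.69 and -0.829 ± 0.573 points (SD, n = 2 each), a difference of -5.59 points against a pooled SD of 2.64 points (exact permutation p = 0.333). After scaling the difference was -5.97 points, and without WT replicate 1 it was -2.97 points.

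In the mean profile Zfp42 lay between very long falls. Before the rise, a fall from 41500000 to 42750000, centred outside the locus, took the mean profile from 31.3 to -24.3 points over 1250 kb. Its change was -60.1 and -46.9 points in WT cells and -67.4 and -48.1 points in KO cells. The genotypes overlapped on the deposited scale, and this fall was not compared after scaling. Beyond the rise, Zfp42 was followed in the mean profile by a long fall from 43450000 to 44450000. It held Adam26b, Adam26a, Adam34 and Adam34l, members of the ADAM family of membrane metalloproteases. The mean profile lost polarity over 1000 kb, with a change of -45.8 points and a slope of -4.58 points per 100 kb, and only 8.64% of falls were less steep. The change was -50.5 and -39.2 points in WT cells and -55.0 and -38.4 points in KO cells, so the genotypes overlapped (difference -1.82 points, pooled SD 10.1 points; exact permutation p = 1). After scaling it was -53.1 and -46.9 points in WT cells and -43.4 and -40.6 points in KO cells. The scaled fall was hence smaller in both KO libraries, by 7.98 points against a pooled SD of 3.40 points (exact permutation p = 0.333). Its first zero crossing lay 807 and 756 kb from the middle of Zfp42 in WT cells and 962 and 761 kb from it in KO cells, where KO replicate 2 crossed 0 again farther on. With a running mean of 9 windows each library crossed 1 time, at 815 and 740 kb in WT cells and at 953 and 878 kb in KO cells. Both KO crossings were then farther from the gene, by 138 kb against a pooled SD of 52.8 kb (exact permutation p = 0.333). The middle of the change overlapped between the genotypes, with a difference of 10.7 kb and a pooled SD of 52.2 kb. Called in single libraries, this fall was unbroken only in WT replicate 1, from 43475000 to 44450000. WT replicate 2 and KO replicate 1 each had 2 shorter falls centred in the locus. KO replicate 2 had 1, from 43900000 to 44075000, with a change of -14.9 points.

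A window was called flat where the running mean changed by less than 0.25 SD of its library over 100 kb. At Zfp42, 24.6% and 41.0% of windows were flat in WT cells and 50.8% and 49.2% in KO cells, against 32.1% to 35.4% of all autosomal windows. The difference of 17.2 percentage points exceeded the pooled SD of 8.24 (exact permutation p = 0.333), but was 3.28 with a limit of 0.35 SD and 9.02 without WT replicate 1. Flat stretches of at least 8 windows were found at this locus in the KO libraries, and in neither WT library. On the low side of the rise they ran from 42775000 to 43100000 in KO replicate 1, at a mean of -31.8 points, and from 42725000 to 43075000 in KO replicate 2, at -22.9 points. The stretch of KO replicate 1 still went down from -27.2 to -36.3 points. The limit follows the SD of each library, which was widest in KO replicate 1. KO replicate 2 held another from 43550000 to 43725000, at 21.6 points, over the Adam genes.

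Dppa4 (gene ID 73693; 48283735 to 48294292 on chromosome 16) and Dppa2 (gene ID 73703; 48310274 to 48319513) encode small SAP-domain proteins that act together. They are known to keep developmental promoters free of DNA methylation and to activate genes of the early embryo. Their shared rise ran from 48125000 to 48400000 and held no other protein-coding gene. In the mean profile it went from -30.6 to 9.95 points, a change of 40.6 points, and 79.0% of rises were smaller.

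The Dppa rise went from -28.0 to 7.84 points in WT replicate 1 and from -28.4 to 5.76 points in WT replicate 2. It went from -38.9 to 16.6 points in KO replicate 1 and from -27.2 to 9.59 points in KO replicate 2. The changes were thus 35.8 and 34.2 points in WT cells and 55.5 and 36.8 points in KO cells, with KO replicate 2 just above the WT libraries and KO replicate 1 far above them. The means were 35.0 ± 1.14 and 46.2 ± 13.2 points (SD, n = 2 each), a difference of 11.2 points against a pooled SD of 9.38 points (exact permutation p = 0.333). Without KO replicate 1 the difference was 1.83 points, and after scaling it was 2.13 points, with 37.6 and 40.9 points in WT cells and 43.8 and 38.9 points in KO cells.

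The zero crossing of the Dppa rise lay 35.4 and 29.3 kb from the middle of the gene pair in WT cells and 16.0 and 10.5 kb from it in KO cells. Both KO crossings lay at lower coordinates, by -19.1 kb on average with a pooled SD of 4.11 kb (exact permutation p = 0.333). The shift runs in the opposite direction along the chromosome to that at Zfp42 and is again below 25 kb, and 66.6% of rises had a smaller one. The positions themselves depended on smoothing. With a running mean of 3 windows they were 27.3 and 19.5 kb in WT cells and 11.8 and 8.60 kb in KO cells. With 9 windows they were 57.5 and 56.1 kb in WT cells and 36.5 and 24.5 kb in KO cells. The middle of the change did not separate the genotypes here. It lay at -5.98 and -18.6 kb in WT cells and at -8.76 and -26.4 kb in KO cells, a difference of -5.33 kb with a pooled SD of 10.8 kb (exact permutation p = 0.667).

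**Figure D2:**
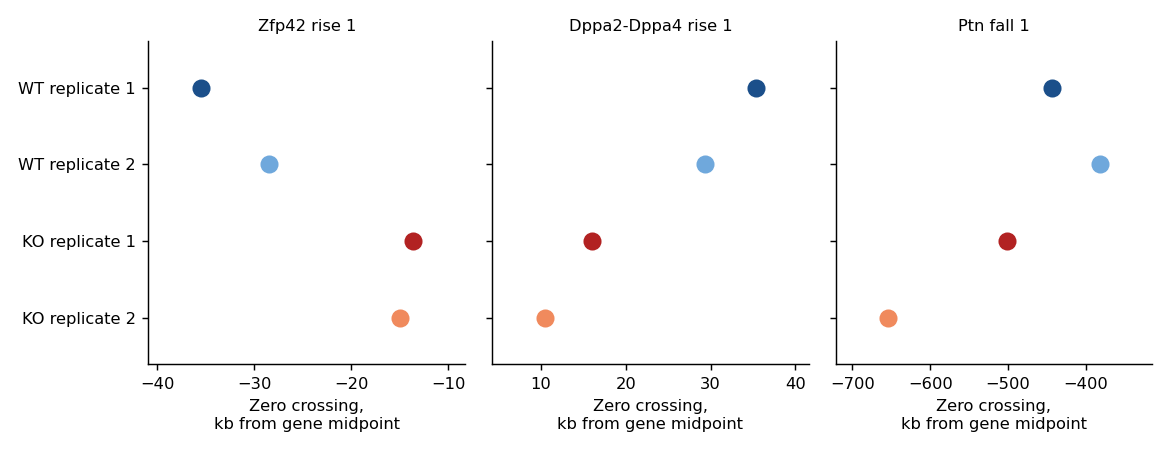
Position at which the running mean of each library crosses 0, in kb from the gene midpoint or the middle of the gene pair, for the 3 segments of these loci that each library crosses exactly 1 time; each panel has its own axis. The KO points lie at -13.7 and -14.9 kb against -35.4 and -28.5 kb in WT at Zfp42, and at 16.0 and 10.5 kb against 35.4 and 29.3 kb in WT at the Dppa genes.

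The window nearest Dppa2, at 48275001 to 48375000, read -0.161 and 1.85 points in WT cells and 8.33 and 6.36 points in KO cells. The KO libraries were both higher, by 6.50 points on average against a pooled SD of 1.41 points (exact permutation p = 0.333), and by 5.63 points after scaling. The window nearest Dppa4 starts 25 kb earlier, at 48250001, and shares most of its bases. It read -8.36 and -5.48 points in WT cells and -7.89 and -4.39 points in KO cells, and the genotypes overlapped (difference 0.781 points, pooled SD 2.27 points; exact permutation p = 0.667). After scaling it read -8.78 and -6.56 points in WT cells and -6.23 and -4.64 points in KO cells. Both KO libraries were then higher, by 2.24 points against a pooled SD of 1.37 points (exact permutation p = 0.333).

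A smaller rise lay beyond the Dppa genes, from 48550000 to 48725000. It began inside Morc1 and ended beyond it, and Morc1 silences transposons in the male germ line. Its change was 21.4 and 12.0 points in WT cells and 22.1 and 21.2 points in KO cells. WT replicate 2 stood below the other libraries, and the difference of 4.94 points was near the pooled SD of 4.71 points (exact permutation p = 0.667). After scaling the difference was 1.51 points. Between these rises the mean profile dipped from 9.95 to 4.16 points, too little to be called a fall. A fall followed from 48725000 to 48925000, across the T-cell adaptor gene Trat1 and the resistin-like genes Retnlb, Retnla and Retnlg. Its change of -14.6 points in the mean profile was just past the limit of 1 SD (14.1 points), and 2.46% of falls were smaller. Among single libraries, only WT replicate 2 and KO replicate 2 had this fall called. It measured -12.8 and -14.0 points in WT cells and -15.0 and -16.7 points in KO cells, a difference of -2.47 points against a pooled SD of 1.05 points (exact permutation p = 0.333). After scaling the difference was 0.335 points and the genotypes overlapped, with a running mean of 3 windows it was -0.539 points, and without KO replicate 2 it was -1.62 points.

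On the other side of the Dppa rise the profile descended slowly. A fall centred outside the locus took the mean profile from 22.0 points at 46725000 to -30.6 points at 48125000, where the rise began, over 1400 kb and at -3.76 points per 100 kb. Its change was -53.3 and -43.3 points in WT cells and -64.6 and -49.5 points in KO cells. The genotypes overlapped on the deposited scale, and this fall was not compared after scaling. Around the turn from fall to rise, from 47950000 to 48150000, the mean profile counted as flat, at a mean of -28.7 points, over a stretch that held Gm52257. In WT replicate 2 the steeper stretch from 47825000 to 48150000 was called as a fall of its own, with a change of -13.0 points. In WT replicate 1 a flat stretch ran from 47775000 to 48175000. Flat stretches of WT replicate 2 and KO replicate 2 lay farther out, from 47600000 to 47825000 and from 47625000 to 47875000, and KO replicate 1 had none of at least 8 windows. Over the locus, 42.6% and 37.7% of windows were flat in WT cells and 36.1% in both KO libraries (difference -4.10 percentage points, pooled SD 2.46; exact permutation p = 0.333). With a limit of 0.35 SD the difference was 0.820.

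**Figure D3:**
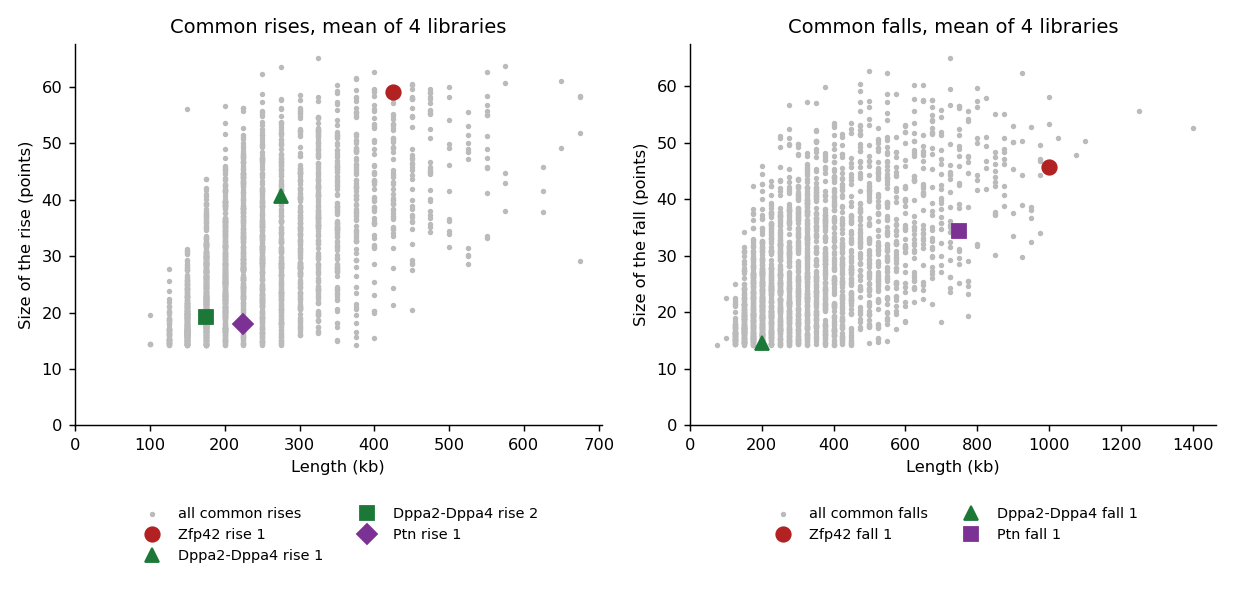
Size of each rise (left) or fall (right) of the mean profile in points against its length in kb, with all autosomal segments in grey and those of the 3 loci as coloured symbols. The Zfp42 rise, of 59.1 points over 425 kb, lies near the upper edge of the cloud, and the Zfp42 fall of 1000 kb and the Ptn fall of 750 kb lie among the longest.

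Ptn (gene ID 19242; 36714924 to 36810179 on chromosome 6) encodes pleiotrophin, a secreted heparin-binding growth factor made in the developing nervous system. It lay at the foot of a long fall, in a stretch of negative polarity. The fall ran from 35925000 to 36675000, ended just short of Ptn and held the muscarinic receptor gene Chrm2. The mean profile went from 15.9 to -18.4 points over 750 kb, and its slope was -4.58 points per 100 kb, with 8.60% of falls less steep. From the foot of the fall the mean profile was flat over 175 kb, from 36650000 to 36825000, at -17.5 points, and this stretch covered Ptn.

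The change over the Ptn fall was -34.3 and -34.1 points in WT cells and -37.4 and -31.5 points in KO cells, and the genotypes overlapped (difference -0.257 points, pooled SD 2.94 points; exact permutation p = 1). After scaling it was -36.0 and -40.8 points in WT cells and -29.5 and -33.3 points in KO cells, a difference of 6.99 points against a pooled SD of 3.06 points (exact permutation p = 0.333). The way down differed between libraries. In WT the fall was called as an unbroken stretch, from 36100000 to 36650000 in replicate 1 and from 36050000 to 36650000 in replicate 2. KO replicate 2 instead fell by 26.9 points between 36000000 and 36200000, and again by 15.9 points between 36325000 and 36625000. KO replicate 1 also went down there, from 11.8 points at 36025000 to -13.6 points at 36450000, but in steps that each stayed below 1 SD of its own wide profile and so were not called. It then fell by 22.4 points between 36550000 and 36950000, past Ptn.

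The fall crossed 0 at -444 and -382 kb from the middle of Ptn in WT cells and at -501 and -654 kb in KO cells. Both KO crossings were farther from Ptn, by -165 kb on average, but they were also far apart, and the pooled SD was 82.3 kb (exact permutation p = 0.333). The middle of the change gave -211 kb with a pooled SD of 67.8 kb (exact permutation p = 0.333). Without KO replicate 2 the shift was -88.3 kb. In KO replicate 2 the running mean, once below 0, came back from -8.83 points at 36200000 to -1.55 points at 36325000. Over 1564 falls that each library crossed exactly 1 time, the median absolute shift was 24.4 kb. Of these falls, 99.0% had a smaller shift than this one, and the KO and WT positions did not overlap in 51.7%. That rank takes no account of slope, and this fall was shallow, at -4.58 points per 100 kb against a median of -8.42. Among the 48 windows of the loci that do not overlap, the largest difference lay here, at 36100001 to 36200000, between the crossings of the KO libraries. It read 12.8 and 11.0 points in WT cells and 4.84 and -11.6 points in KO cells. KO was lower by a mean difference of -15.3 points, with an SE of 5.19 points and an adjusted p-value of 0.255 in limma, and the KO libraries differed from each other by more than that.

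Over the Ptn locus, 59.4% and 32.8% of windows were flat in WT cells and 51.6% and 29.7% in KO cells. In each genotype replicate 1 was the higher, and the genotypes overlapped (difference -5.47 percentage points, pooled SD 17.2; exact permutation p = 0.667). In WT replicate 1 a flat stretch ran across Ptn from 36625000 to 36925000, at a mean of -19.1 points. Beyond the Dgki rise both first replicates had a flat stretch at nearly the same level, from 37225000 to 37400000 at -8.92 points in WT and from 37225000 to 37475000 at -8.97 points in KO.

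In the window over Ptn, at 36725001 to 36825000, polarity was -19.8 and -14.4 points in WT cells, -27.4 points in the first KO culture and -4.26 points in the second. The KO libraries thus lay on opposite sides of both WT libraries. The means were -17.1 ± 3.79 and -15.8 ± 16.4 points (SD, n = 2 each; difference 1.27 points, exact permutation p = 1). After scaling the difference was 5.94 points against a pooled SD of 8.75 points, and the genotypes overlapped. Next to Ptn, KO replicate 2 had a fall of its own from 36800000 to 36975000, with a change of -20.9 points, while KO replicate 1 was flat at -30.7 points from 36825000 to 37050000.

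The nearest rise lay inside Dgki, the diacylglycerol kinase iota gene, from 37000000 to 37225000. It went from -22.1 to -7.75 points in WT replicate 1 and from -23.6 to -4.93 points in WT replicate 2. It went from -31.6 to -10.2 points in KO replicate 1 and from -26.3 to -9.28 points in KO replicate 2. It thus stayed below 0 from start to end in all 4 libraries, unlike the rises at Zfp42 and at the Dppa genes. The change of 16.5 ± 3.05 points in WT cells and 19.2 ± 3.09 points in KO differed by 2.69 points, below the pooled SD of 3.07 points (exact permutation p = 0.667). After scaling the difference was -1.27 points, with a pooled SD of 3.68 points. KO replicate 2 alone of the 4 had a further called rise from 37300000 to 37450000, of 17.6 points, over Creb3l2, a membrane-bound transcription factor gene. It was followed there by a fall with a change of -21.9 points.

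**Figure D4:**
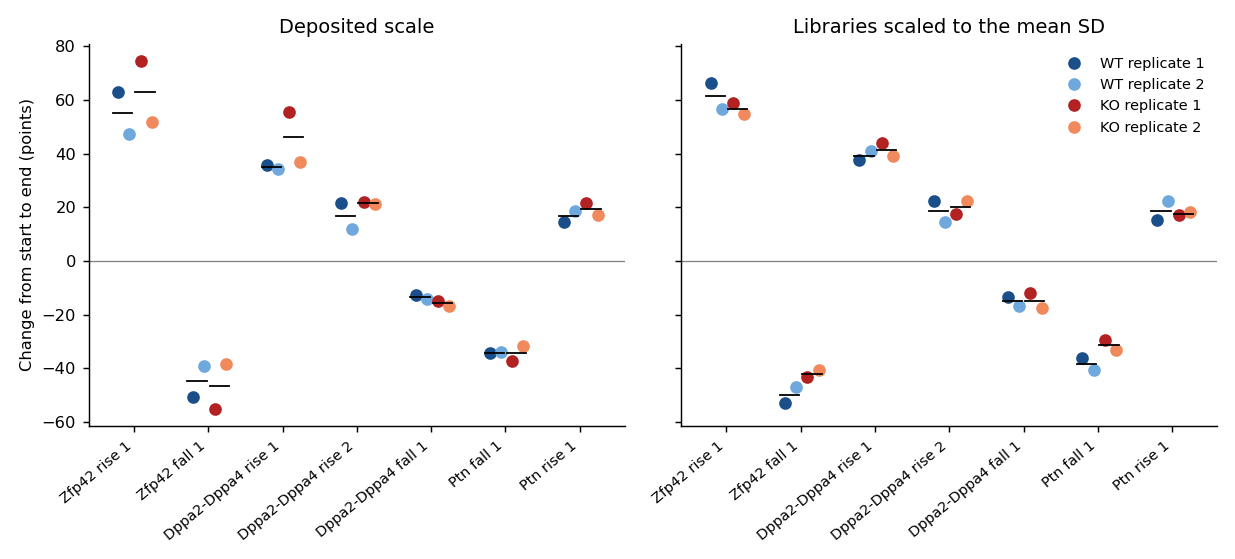
Change in polarity from the start to the end of each of the 7 rises and falls with midpoints in the loci, in points, on the deposited scale (left) and after scaling each library to the mean SD (right); dots are libraries and black lines are genotype means (n = 2). On the left KO replicate 1 lies highest in the Zfp42 rise (74.3 points) and the Dppa rise (55.5 points), and on the right these values are 58.7 and 43.8 points, close to the other libraries.

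The span of the profile, its highest minus its lowest value in a locus, was 64.0 and 50.5 points at Zfp42 in WT cells and 75.9 and 53.2 points in KO cells. At the Dppa locus it was 54.9 and 49.6 points in WT cells and 64.7 and 47.8 points in KO cells. Both sets overlapped (differences 7.34 and 4.04 points; exact permutation p = 0.667 and 1). After scaling the KO libraries lay below the WT libraries at both loci, with a difference of -5.69 points at Zfp42 (pooled SD 3.82 points) and of -7.66 points at the Dppa locus (pooled SD 0.889 points; exact permutation p = 0.333 each). At Ptn the span was 36.7 and 36.8 points in WT cells and 50.7 and 44.4 points in KO cells, a difference of 10.8 points against a pooled SD of 3.12 points (exact permutation p = 0.333). That difference was 2.23 points after scaling, with overlap, and 1.39 points within 500 kb of the gene.

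No window of the loci passed the limma test of KO against WT at an adjusted p-value under 0.05. The count was 0 of 48 windows that do not overlap, against 0.0549% of 23672 such windows on the autosomes (0.0338% higher and 0.0211% lower in KO). At an unadjusted p-value under 0.05 there were 2 of 48, against 12.2%. They lay at 36100001 in the Ptn locus and at 48300001 beside Dppa2, where polarity was 6.13 and 6.63 points in WT cells and 20.5 and 12.5 points in KO cells (difference 10.1 points, SE 4.66; limma adjusted p = 0.393). The median absolute difference was 3.08 points in the loci and 4.44 points on the autosomes, and 3.36 and 3.65 points after scaling. The count was 0 without either WT library, 2 without KO replicate 1 and 6 without KO replicate 2. With 1 library left in a group, that library is assumed to vary as those of the other group do. In the fits with 1 KO library 5.79% and 20.2% of the 23672 windows passed.

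The loci differed in how closely the libraries followed each other. Across overlapping windows, Pearson's r between libraries lay between 0.971 and 0.984 at Zfp42 (n = 61) and between 0.931 and 0.969 at the Dppa locus (n = 61). At Ptn (n = 64) it was 0.945 between the WT libraries, 0.726 between the KO libraries and 0.687 to 0.848 across genotypes. Over 94694 autosomal windows it was 0.864 to 0.940. The KO values lay above or below the whole WT range in 7 of 61 windows at Zfp42, 15 of 61 at the Dppa locus and 34 of 64 at Ptn. The background over the autosomes was 44.6%, and after scaling 45.1%, with counts of 22, 28 and 31 in the loci. The longest such run on the deposited scale was 6 windows, at Ptn, with midpoints from 36925000 to 37050000 up to and into the start of the Dgki rise, where KO was the lower. After scaling it was 9 windows, also at Ptn but with KO the higher, from 36525000 to 36725000.

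**Figure D5:**
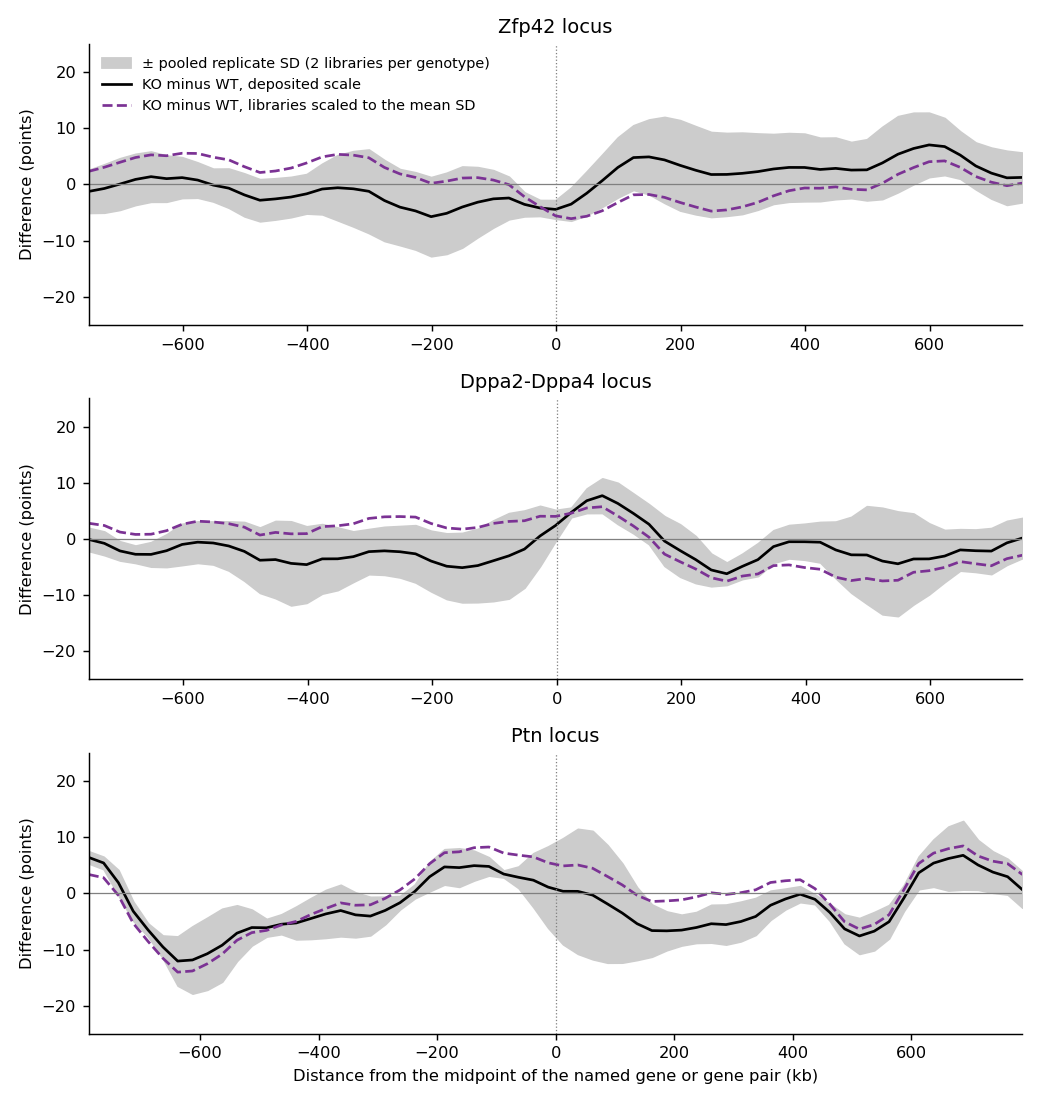
Difference in polarity, KO minus WT, in points (running mean of 5 windows) against distance from the gene midpoint or the middle of the gene pair in kb; the black line is the deposited scale with a grey band of ± the pooled replicate SD, and the dashed line is after scaling. The black line is below 0 with a narrow band at Zfp42, above 0 just beyond Dppa2 and Dppa4, and lowest about 600 kb before Ptn, where the band is wide.

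The loci also differed in gene content. Protein-coding genes covered 11.4% of the Zfp42 locus (8 genes), 27.0% of the Dppa locus (10 genes) and 53.0% of the Ptn locus (5 genes). A list of 10 related genes was read in the windows that hold their midpoints. They were Yy1, Mdk (the homologue of Ptn), the Ptn receptors Ptprz1, Alk and Sdc3, and Dppa3, Dppa5a, Zscan4c, Zscan4d and Zscan4f of early embryos and stem cells. In limma 0 of 10 passed at an adjusted p-value under 0.05, against 0.0549% of all windows, and 2 had an unadjusted p-value under 0.05, against 12.2%. These were Ptprz1, at -14.6 and -12.7 points in WT cells and -32.2 and -24.0 points in KO (limma adjusted p = 0.237), and Dppa3, at -12.7 and -11.4 points in WT cells and -26.6 and -18.1 points in KO (limma adjusted p = 0.385). Of the 10 midpoints, 4 lay in rises, 3 in falls and 3 in neither. The genes with the most similar profile over 61 windows, among 18468 compared, were Nexn and Slc27a5 for Zfp42 (r = 0.986 and 0.985). They were Cga and Efnb2 for the Dppa locus (r = 0.964 each) and Olfr402 and Krtap9-5 for Ptn (r = 0.937 and 0.933). The median r over all genes was 0.229, 0.220 and -0.109.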

How the data were processed

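TrAEL-seq libraries of 2 WT and 2 KO cultures were analysed. Per the submitters' processing notes, reads were trimmed with Trim Galore 0.6.5 and aligned with Bowtie2 2.4.1 to GRCm38; per the file headers, they were deduplicated. The authors' deposited score is the signed strand imbalance per window; the program that made it is not given in the sources used here. The table has no counts, so no interval or detection floor was computed. All 4 value columns were used, matched to samples by genotype and replicate number; for WT replicate 2 the label and the column name give different index sequences.

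Members and lists were chosen with earlier results of these data known. Genes came from RefSeq (GRCm38.p6). Genes named are the 4 members, up to 4 protein-coding genes nearest the member in each segment or flat stretch, a list of 10 related genes (1 more is not reported here, for a reason unrelated to its values), and 2 per locus, over 3 Mb apart, with the highest r. Windows were tested with limma 3.58.1 (R 4.3.3) over 23672 autosomal windows, with Benjamini-Hochberg adjustment; scripts were tested on simulated data. Values per library were compared by exact permutation. Over the 17 permutation tests of spans, gene windows, segments and flat shares, the lowest adjusted p-value was 0.810; others are unadjusted. Scaling multiplied each library by the mean autosomal SD over its own. Python 3.11.15 was used.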

Additional observations from a re-analysis of the deposited data

How the results depend on the processing

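Of 69 alternatives that kept all libraries and could change a value, 47 kept the direction and stayed within the replicate SD (or kept the count), 11 reversed the sign, 9 moved the value and 2 made a call. Zero crossings and their alternatives were chosen after seeing the data. No permutation test here could pass 0.05.

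Scaling reversed the difference in span to -5.69 points at Zfp42 and -7.66 at the Dppa locus, and that of the Zfp42 rise to -4.81, the Zfp42 fall to 7.98, the Dppa fall to 0.335, the Ptn fall to 6.99 and the Ptn rise to -1.27 points. It moved the Ptn span to 2.23 points. These measures contain the amplitude that scaling divides out. With running means of 3 and 9 windows the Ptn fall differed by 0.533 and 1.93 points, the Zfp42 crossing by 24.4 and 12.0 kb and the Dppa crossing by -13.2 and -26.3 kb. With 3 windows the Dppa fall differed by -0.539 points. Within 500 kb the Ptn span differed by 1.39 points, and with a mean of 5 windows the Dppa2 window by 4.70 points. With a flat limit of 0.35 SD the difference was 3.28 at Zfp42 and 0.820 percentage points at the Dppa locus; with 0.15 SD it was 1.56 at Ptn. The cause was not tested.

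With the replicate number as a block, 1 of 48 windows passed limma, that at 36100001 in the Ptn locus (adjusted p = 0.0353), and 1 with the block and scaling (adjusted p = 0.0119), against 2.66% and 2.76% of all autosomal windows. Deviations of same-numbered libraries correlated at 0.241 over the autosomes and 0.512 in the loci, and at 0.0158 and 0.190 after scaling; with 2 pairs the numbers are not known to pair the cultures. The block left all differences of means as they were.

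Without each library in turn, differences ranged from -3.99 to 18.7 points for the Zfp42 span, -4.43 to 12.5 for the Dppa span, 7.71 to 14.0 for the Ptn span, -8.20 to -2.97 for the Zfp42 window, -0.973 to 2.54 for the Dppa4 window and -10.3 to 12.8 for the Ptn window. They ranged from -3.60 to 19.1 for the Zfp42 rise, -10.1 to 6.48 for the Zfp42 fall, 1.83 to 20.5 and 0.243 to 9.63 for the Dppa rises, 0.506 to 4.88 for the Ptn rise, -3.31 to -1.62 for the Dppa fall, -3.19 to 2.68 for the Ptn fall, 9.02 to 25.4 percentage points for flat windows at Zfp42, -6.56 to -1.64 at the Dppa locus and -18.8 to 7.81 at Ptn. The count of windows ranged from 0 to 6.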
